A study of Mus musculus with 4 samples.

Results

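The genes described here are 9 members of the Myc network and of the growth machinery it is known for: Myc, Max and Mxd1, the nucleolar genes Gnl3, Nop56, Fbl, Ncl and Npm1, and the polyamine gene Odc1. They were chosen by name, and every probe set that the platform annotation gives to 1 of them alone was taken. This found 1 probe set each for 8 of the 9 members, out of 12654 probe sets and 8220 measured genes on the arrays. Fbl, which encodes the methyltransferase fibrillarin, has no probe set of its own in that annotation and was not analysed here. Since each member rests on a single probe set, no second probe set of a member could be set against it.

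Total RNA of mouse dendritic cell cultures was measured on 4 expression arrays, 1 per group. The groups were dendritic cell progenitors from bone marrow, which the labels describe as amplified in vitro, cells at day 7 of differentiation, cells at day 10, and day 10 cells stimulated over 16 hours with TNFalpha (TNF below), a cytokine known to mature dendritic cells. The labels give no mouse strain, genotype, age or number of animals, and no growth factor of the cultures. With 1 array per group there is no replicate, so no test was possible and every difference below is one between 2 arrays, with no error from repeat cultures.

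Myc is a basic helix-loop-helix leucine zipper protein that binds DNA as a dimer with Max, at E-boxes with the letters CACGTG, and raises transcription of genes for ribosome production, nucleotide and polyamine synthesis and the cell cycle. Mxd1 (Mad1) belongs to a family that also pairs with Max, occupies the same sites and brings in Sin3 and histone deacetylases, so that it opposes Myc, and in several lineages, myeloid cells among them, Mxd1 is known to increase as cells leave the cell cycle. The nucleolus, where ribosomes are assembled, is large in cycling progenitors and is a main site of Myc action.

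The 300-base windows around the transcription start of 6 members were available from RefSeq, on build GRCm38.p6: those of Max, Mxd1, Gnl3, Nop56, Ncl and Odc1, from 250 bases before the start to 50 after. Of the 6, only that of Max holds CACGTG, which reads the same on both strands, beginning 3 bases before the start. The related motif CACGCG, searched on both strands, occurs only in that of Odc1, in 2 copies that begin 180 and 101 bases before the start. Among all 32851 windows of this length 7.15% hold CACGTG and 9.27% hold CACGCG, the latter counted on either strand. Those of Max (chr12:76962199-76962498, minus strand) and Odc1 (chr12:17544623-17544922, plus strand) are shown because they hold a motif, given in capitals, and that of Nop56 (chr2:130274162-130274461, plus strand) because this member differed most between arrays and its window holds neither motif.
Max: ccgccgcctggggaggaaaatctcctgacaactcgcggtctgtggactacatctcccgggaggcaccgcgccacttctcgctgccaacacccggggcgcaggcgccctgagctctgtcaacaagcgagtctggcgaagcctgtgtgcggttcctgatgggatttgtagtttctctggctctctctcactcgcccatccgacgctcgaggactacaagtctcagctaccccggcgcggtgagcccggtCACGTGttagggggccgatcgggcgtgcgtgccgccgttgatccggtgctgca
Odc1: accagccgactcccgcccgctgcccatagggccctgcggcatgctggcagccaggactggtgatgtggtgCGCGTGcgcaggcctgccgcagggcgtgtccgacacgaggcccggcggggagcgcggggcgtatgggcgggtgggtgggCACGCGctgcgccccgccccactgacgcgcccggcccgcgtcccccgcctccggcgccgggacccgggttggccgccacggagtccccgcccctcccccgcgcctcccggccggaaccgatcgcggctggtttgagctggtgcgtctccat
Nop56: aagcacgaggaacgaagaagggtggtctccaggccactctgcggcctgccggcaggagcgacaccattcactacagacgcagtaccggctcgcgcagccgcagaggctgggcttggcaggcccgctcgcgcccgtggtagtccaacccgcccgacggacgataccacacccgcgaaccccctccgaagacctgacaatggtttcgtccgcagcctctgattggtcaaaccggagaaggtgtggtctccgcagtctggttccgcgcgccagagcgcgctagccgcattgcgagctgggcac
These letters describe the windows only, and sites elsewhere in the genes were not searched.

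Levels below are scaled intensities in arbitrary units, and a level of 1 probe set is never set against that of another. Values near 0 or below it are background. Folds are given against a floor of 428 units, the 60th percentile of all scaled values: where the dimmer array lies under it, the fold is a lower bound ("at least"), and where both do, none is given. Counts of genes at least 2-fold higher or lower use a looser floor of 105 units, the 40th percentile, unless stated. As the only measure of error at hand, the 2 brightest probe sets of a gene disagreed in their log2 ratios with an SD of 0.83 for day 7 against progenitor (672 genes), 0.85 for day 10 against day 7 (665), 1.08 for day 10 against progenitor (635) and 0.74 for TNF against day 10 (674). This SD covers probe sets, not cultures.

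The markers of the labelled cells followed the labels in part. Of 16 dendritic cell markers 3 lay above 428 units on the progenitor array and 15 on each of the other 3, while Zbtb46 stayed at 77.4 units or less on all 4. Of 9 haematopoietic progenitor markers 5 lay above it in progenitors and 3 on each other array; Cd34 was at only 255.6 units in progenitors. The progenitor list did not differ one way: Myb read 8955 units in progenitors, 1104 at day 7 and 248.2 at day 10, whereas Kit read 647.4, 1308 and 1362 units on these arrays, and Sox4 261.6, 313.1 and 640.5. Granulocyte markers were present throughout, 12 of 12 above 428 units in progenitors and at day 7 and 9 of 12 at day 10 (7 on the TNF array). Their summed level was 219544 units in progenitors, 129659 at day 7 and 148254 at day 10, a sum of opposite differences. Elane, which encodes neutrophil elastase of the primary granules, read 27938 units in progenitors, 6501 at day 7 and 998.8 at day 10, and Mpo and Ctsg had the same order of arrays. S100a8 read 27286 units in progenitors, 23848 at day 7 and 57731 at day 10. With TNF the summed level of the list was 19540 units, against 148254 at day 10. Macrophage markers above 428 units numbered 5 of 10 in progenitors and 8 on each other array. Mast cell and basophil markers numbered 1 to 3 of 9, erythroid 1 or 2 of 7, B cell 2 or 3 of 6, T and NK cell 0 or 1 of 7, and stromal 0 or 1 of 8. In such bulk RNA fewer cells of a type and less RNA per cell cannot be told apart. The log2 ratio of the 3' over the 5' control probe set of Actb lay between -0.09 and 0.16 on the 4 arrays, and that of Gapdh between -0.33 and -0.08. Bacterial control transcripts, which do not come from the cells, were read by 9 probe sets. Their median log2 ratio was -0.34 for day 7 against progenitor and 1.18 for day 10 against progenitor. It was 1.50 for day 10 against day 7 and -0.50 for TNF against day 10. How far the scaling behind these shifts enters the ratios of the members was not tested. Ratios of the bright members Ncl and Npm1 are given also after quantile normalization, which forces the same distribution on all arrays.

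On the later arrays Myc read lower and Max higher than in progenitors, while Mxd1 did not read higher. Myc read 1723 units in progenitors, 950.5 at day 7 and 710.4 at day 10. The highest of the 3 arrays was the progenitor and each later array was lower. Day 10 against progenitor was 2.43-fold lower, a log2 ratio of -1.28 and larger than the probe-set SD of 1.08. The step to day 7 was 1.81-fold (log2 -0.86, about the size of the SD of 0.83), and that of day 10 against day 7 was 1.34-fold, within it. Such ratios were not rare among named probe sets within 0.5 log2 units of the mean level of Myc. Of 1264 such probe sets 14.8% had a still lower ratio at day 10 against progenitor, and 15.9% of 1263 at day 7.

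Max, the shared partner, read 1465 units in progenitors, 2033 at day 7 and 2545 at day 10, so that the order of the arrays was the reverse of that for Myc. Day 10 was 1.74-fold higher than progenitor, a log2 ratio of 0.80 that lies within the SD of 1.08. Mxd1 read 1702 units in progenitors, 1417 at day 7 and 1065 at day 10. It was thus lower on the later arrays as well, 1.60-fold at day 10 against progenitor (log2 -0.68), again within the SD. No array gave more Mxd1 than the progenitor array did.

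**Figure D1:**
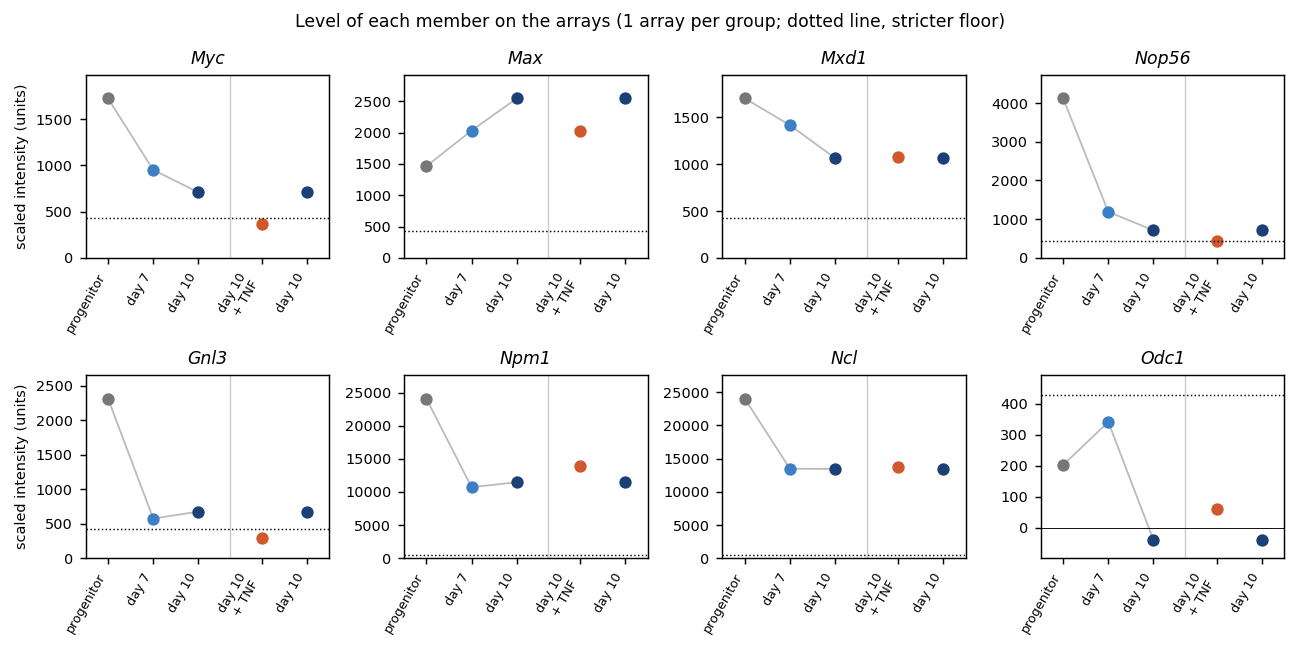
Scaled intensity (units, linear axis) of each of the 8 measured members; in each panel the 3 points left of the grey line are progenitor, day 7 and day 10 in time order, and right of it day 10 with TNF stands beside day 10, which is drawn a second time. Every point is 1 array and the dotted line is the floor of 428 units. Myc, Mxd1, Nop56, Gnl3, Npm1 and Ncl were highest in progenitors, Max was lowest there, and all 4 values of Odc1 lie under the floor.

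Of the nucleolar members Nop56, Gnl3 and Npm1 were at least 2-fold lower at day 7 than in progenitors and Ncl was 1.78-fold lower. Nop56 encodes a core protein of the box C/D particles that guide methylation of ribosomal RNA. It read 4118 units in progenitors, 1191 at day 7 and 713.7 at day 10, and was 3.46-fold lower at day 7 (log2 -1.79) and 5.77-fold lower at day 10 (log2 -2.53) than in progenitors. Both differences exceed the probe-set SD. Its further step of day 10 against day 7 was 1.67-fold (log2 -0.74), within the SD of 0.85.

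Gnl3 encodes nucleostemin, a nucleolar GTP-binding protein found in cycling progenitor and tumour cells. It read 2314 units in progenitors, 576.4 at day 7 and 676.6 at day 10. It was 4.02-fold lower at day 7 than in progenitors (log2 -2.01), and day 10 stood 1.17-fold above day 7.

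Npm1 (nucleophosmin, a nucleolar chaperone) and Ncl (nucleolin, which binds ribosomal RNA precursors) are bright, and their ratios depend on how bright probe sets are scaled. Npm1 read 24064 units in progenitors, 10721 at day 7 and 11473 at day 10. Ncl read 23990 units in progenitors, 13468 at day 7 and 13433 at day 10. For both genes the progenitor array was the highest and days 7 and 10 were close to each other. Npm1 was 2.24-fold lower at day 7 than in progenitors (log2 -1.17, or -1.62 after quantile normalization). Ncl was 1.78-fold lower (log2 -0.83, or -1.16). Named probe sets within 0.5 log2 units of their mean level had median ratios of the opposite sign in the same comparison, 0.34 over 153 probe sets for Npm1 and 0.32 over 148 for Ncl.

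Between day 10 and day 7 the log2 ratio was 0.10 for Npm1 and 0.00 for Ncl, and after quantile normalization -0.21 and -0.44; probe sets of like level had medians of 0.40 and 0.46. The sign of the Npm1 ratio thus turns with the scaling. Against progenitors the day 10 ratios were -1.07 for Npm1 and -0.84 for Ncl, or -1.83 and -1.60 after quantile normalization.

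Odc1, which encodes ornithine decarboxylase, the first enzyme of polyamine synthesis and a classic Myc target, could not be followed. Its probe set read 202.3 units in progenitors, 340.9 at day 7 and -39.1 at day 10. With TNF it read 59.6 units, against -39.1 at day 10. All 4 values lie under 428 units, so no fold is given. A low reading of this probe set does not show that the transcript was low: Eif5a, a translation factor that cells generally need, read between -416 and -272 units on the same arrays.

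Counted together, 3 of the 8 measured members (Gnl3, Nop56 and Npm1) were at least 2-fold lower at day 7 than in progenitors and 0 were higher, where 11.9% of all 5957 genes tested were lower and 13.4% higher. The median log2 ratio of the 8 was -0.85, against -0.04 for all genes. At day 10 against progenitor 4 of 8 were lower, Myc having joined those 3, and 0 higher; the shares over all genes were 16.8% and 20.4%, and the medians -1.01 for the members and 0.07 for all genes. Some granulocyte and progenitor markers, given above, were lower on these arrays too and others higher, and their part in the members' values was not tested. At day 10 against day 7, 1 of 8 was lower and 0 higher, beside 8.44% and 11.2% of all genes, with medians of -0.21 and 0.07. That 1 member was Odc1, and at the floor of 428 units the count was 0 of 7, beside 4.65% of all genes.

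**Figure D2:**
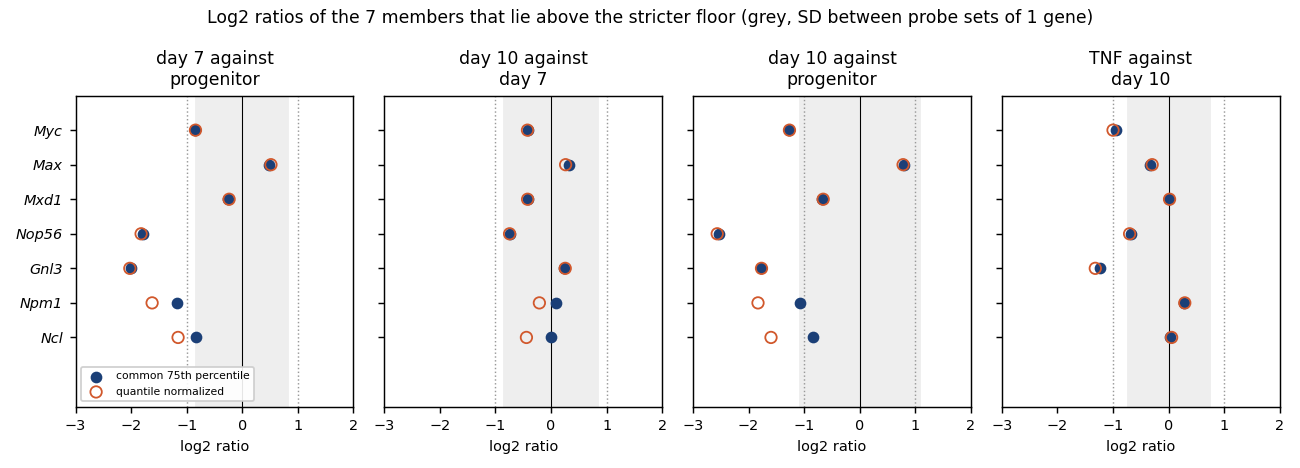
Log2 ratio (x axis) of the 7 members other than Odc1 in each comparison of 2 arrays, with values at the floor of 105 units. Filled points use the common 75th percentile and open points quantile normalization, the grey band is 1 SD of the disagreement between probe sets of a gene, and dotted lines mark 2-fold. Nop56, Gnl3 and Myc lie left of the band against progenitor at both days, Myc at day 7 only just. At day 7 Npm1 and, at its edge, Ncl do so too. Max is the 1 member to the right of 0 in both, and the 2 scalings differ most for Npm1 and Ncl.

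After 16 hours of TNF Myc, Gnl3 and Nop56 read lower than at day 10, and the bright nucleolar members read at or above their day 10 level. Myc read 367.5 units with TNF, against 710.4 at day 10, at least 1.66-fold lower. Gnl3 read 287.3 units with TNF, against 676.6 at day 10, at least 1.58-fold lower. Nop56 read 445.4 units with TNF, against 713.7 at day 10, 1.60-fold lower. All 3 were on the TNF array at their lowest of the 4 arrays. At the floor of 105 units their log2 ratios were -0.95, -1.24 and -0.68, the first 2 larger than the probe-set SD of 0.74. At the floor of 428 units, under which the TNF values of Myc and Gnl3 lie, they were -0.73, -0.66 and -0.68, all within that SD.

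Max was 1.25-fold lower with TNF, at 2030 units, against 2545 at day 10. Mxd1 read 1075 units with TNF, against 1065 at day 10, and Ncl 13701 against 13433; both differ by 1.02-fold or less. Npm1 was 1.21-fold higher, at 13939 units with TNF, against 11473 at day 10. In all, 1 of 7 members measured (Gnl3) was at least 2-fold lower and 0 higher, where 8.76% and 8.84% of all 6151 genes were, and the medians were -0.33 for the members and -0.04 for all genes. At the floor of 428 units 0 members were lower, beside 5.15% of all genes, since the TNF value of Gnl3 lies under it. The summed level of the granulocyte markers was lower with TNF, as given above, and their part in the members' values was not tested.

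Other genes of the network did not move as one group. Over all genes at 105 units, 11.9% were lower and 13.4% higher at day 7 against progenitor, and 8.44% and 11.2% at day 10 against day 7. At day 10 against progenitor the shares were 16.8% and 20.4%, and with TNF 8.76% and 8.84%. The list counts below are to be read beside these shares. The list of further Myc, Max and Mlx partners had 7 of 11 genes measured, of which 6 lay above 105 units in the day 7 comparison, with 1 lower (Mxd3) and 1 higher (Mycl). The Mxd3 and Mycl values of that comparison all lie under 428 units. At the floor of 428 units 0 of 4 were called either way, and day 10 against day 7 had 0 of 6. With TNF 1 of 7 was higher, again Mycl, and 0 lower. Mxd4, another Max-binding repressor of the Mxd family, read 1207 units in progenitors, 2154 at day 7 and 3671 at day 10, and was 3.04-fold higher at day 10 than in progenitors (log2 1.61). With TNF it read 3751 units, against 3671 at day 10. Over the 3 times its order was that of Max and the reverse of that of Mxd1.

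Mycl (L-Myc), the Myc relative known to be expressed in dendritic cells, read 48.8 units in progenitors, 211.0 at day 7 and 292.6 at day 10, all under 428. With TNF it read 818.8 units, against 292.6 at day 10, at least 1.91-fold higher, where Myc was at least 1.66-fold lower. The 2 genes thus had opposite order between these arrays. Mycn read between -11.9 and 130.2 units on the 4 arrays. Mlx, which pairs with glucose-sensing partners, was 1.85-fold lower at day 7 than in progenitors, and Mnt, a broadly expressed Max-binding repressor, 1.27-fold higher. Mxi1 lay between 287.3 and 461.7 units and Mxd3 under 428 on all arrays.

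Among cofactors and regulators of Myc, 2 of 13 genes were lower (Ruvbl1 and Aurka) and 3 higher (Mycbp2, Pim2 and Hdac2) at day 7, or 2 and 1 of 10 at the floor of 428 units. The share lower is near the 11.9% of all genes, and 13.4% of all genes were higher. Both values of Pim2 and both of Hdac2 lie under 428 units. Ruvbl1, an ATPase of chromatin and snoRNP assembly complexes, was 4.20-fold lower, at 762.3 units at day 7 and 3202 in progenitors, with a dimmer second probe set at a log2 ratio of -1.48 and another at the floor. Aurka, a mitotic kinase that stabilises N-Myc, was 3.17-fold lower, and Mycbp2, a ubiquitin ligase named for binding Myc, 3.18-fold higher. Sin3b, chosen after its values were seen and part of the complex that Mxd proteins recruit, read 3333 units in progenitors, 4726 at day 7 and 4853 at day 10. Day 10 against day 7 gave 1 gene of this list lower (Aurka) and 1 higher (Kat2a) of 15, and TNF 1 lower (Hdac2) and 0 higher of 15. The Kat2a and Hdac2 values behind these calls all lie under 428 units.

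Of 31 nucleolar ribosome assembly genes measured, the members left out, 12 were at least 2-fold lower at day 7 than in progenitors, 0 were higher and 19 were within 2-fold. The median log2 ratio was -0.81, smaller than the -1.79 of Nop56 and the -2.01 of Gnl3, and 11 of 27 were lower at the floor of 428 units, beside 9.72% of all genes. Nop58, the direct partner of Nop56 in box C/D particles, read 529.5 units at day 7 and 1657 in progenitors, 3.13-fold lower. Utp4, a small-subunit processome protein, was 3.72-fold lower, Rrp1b 3.01-fold, and the helicase gene Ddx18 2.78-fold, with a second Ddx18 probe set at background. Gar1, of the box H/ACA particles, was 3.83-fold lower at day 10 than in progenitors, with its second probe set at background too. Some genes of the list had the opposite sign, for example Pes1, at 1015 units at day 7 and 783.6 in progenitors.

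From the same list, day 10 against day 7 had 0 of 31 lower and 0 higher (median -0.09), a smaller median than at day 7 against progenitor. Against progenitors 16 were lower and 1 (Nip7) higher at day 10 (median -1.07). With TNF 2 were lower (Exosc7 and Utp14a) and 1 higher (median -0.09). The higher one, Rcl1, a processing factor, read 1330 units with TNF, against 212.4 at day 10, at least 3.11-fold higher, and Nop16 was 1.98-fold higher, while Exosc7 was at least 1.73-fold lower. The lower Gnl3 and Nop56 values with TNF were thus not matched by the median of this list.

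Of 19 RNA polymerase I and III genes measured 3 were lower (Polr1a, Polr1e and Polr3a) and 0 higher at day 7. That share is near the 11.9% of all genes that were lower, and the median was -0.62. Of the 3, 1 was lower at the floor of 428 units, Polr1a, the largest subunit of polymerase I, at 370.5 units at day 7 and 1170 in progenitors, at least 2.73-fold lower. Day 10 against day 7 and TNF against day 10 had 0 of 20 in either direction, with medians of 0.14 and -0.07.

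In polyamine metabolism Srm, which encodes spermidine synthase, an enzyme downstream of Odc1 and a known Myc target, read 5408 units in progenitors, 1627 at day 7 and 1238 at day 10, 3.33-fold lower at day 7 and 4.37-fold lower at day 10 than in progenitors. With TNF it read 925.9 units, against 1238 at day 10, 1.34-fold lower. Its array order was that of Myc. Sat1, which acetylates polyamines for export and breakdown, was 1.67-fold higher at day 7 and 3.09-fold higher at day 10 than in progenitors, the latter a log2 ratio of 1.63, or 1.12 after quantile normalization. Arg2, an arginase gene, was at least 6.16-fold higher at day 7, with a dimmer second probe set at 0.91 on the log2 scale. Azin1, the antizyme inhibitor gene, read 1886 units with TNF, against 4080 at day 10, 2.16-fold lower. Over the list 1 of 8 was lower and 1 higher at day 7, 1 lower (Oaz3, which is dim) and 0 higher at day 10 against day 7, and 1 of 7 lower and 0 higher with TNF.

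Other growth genes that Myc is known to induce were lower at day 7 in 15 of 29 cases and higher in 0, with a median of -1.06. The shares over all genes were 11.9% lower and 13.4% higher. Cad, for pyrimidine synthesis, was 4.07-fold lower, at 522.9 units at day 7 and 2126 in progenitors, Rcc1, a Ran exchange factor, 3.82-fold, the phosphatase gene Cdc25a 3.36-fold and the mitochondrial C1qbp 2.75-fold. Second probe sets of Cdc25a and C1qbp lay at or near background. At day 10 against day 7, 2 of 30 were lower (Shmt1 and Ccnd2) and 3 higher (median -0.10). The higher ones were the glycolysis genes Hk2 (2.76-fold), Pkm (2.40-fold) and Ldha (2.27-fold). After quantile normalization Hk2 kept a log2 ratio of 1.37, but those of Pkm and Ldha were 0.23 and 0.02. At day 10 against progenitor 14 of 31 were lower and 3 higher (median -0.77), beside 16.8% and 20.4% of all genes. The higher ones were Id2, Slc3a2 and Hk2, and after quantile normalization 2 genes were higher and 15 lower. Id2 was 3.39-fold higher (log2 1.76, or 1.26 after quantile normalization), and Slc3a2 read 15647 units at day 10 and 6659 in progenitors.

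With TNF this list had 3 of 29 lower (Cdk4, Rcc1 and E2f1) and 2 higher (Ccnd2 and Cad), shares near the 8.76% and 8.84% of all genes. Both values of E2f1 lie under 428 units. The cyclin gene Ccnd2 read 2226 units with TNF, against 28.8 at day 10, at least 5.20-fold higher. Cad read 1074 units with TNF, against 482.6 at day 10, 2.22-fold higher, and the amino acid transporter gene Slc7a5 was 1.83-fold higher. Cdk4 read 867.2 units with TNF, against 2315 at day 10, 2.67-fold lower. Cad and Ccnd2 therefore did not share the lower TNF value of Myc.

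Genes that Myc is known to repress were higher in 5 of 14 cases and lower in 1 (Cdkn1c) at day 7 (median 0.33), beside 13.4% and 11.9% of all genes. At day 10 against progenitor 9 of 15 were higher and 1 (Col1a1) lower, beside 20.4% and 16.8%. The median was 1.62, or 0.75 with 7 higher after quantile normalization. The Cdkn1c values of the first comparison and the Col1a1 values of the second all lie under 428 units. Cdkn1a, which encodes the cell cycle inhibitor p21, read 1916 units in progenitors, 9496 at day 7 and 13085 at day 10. It was 4.96-fold higher at day 7 than in progenitors, and its second probe set gave a log2 ratio of 2.16, beside 2.31. At day 10 against progenitor the 2 probe sets differed more, with log2 ratios of 4.32 for the second and 2.77 for the first. The size of the step from day 7 to day 10 thus depends on the probe set. The stress genes Gadd45b and Gadd45a were 3.42-fold and at least 3.03-fold higher at day 7. At day 10 against day 7, 4 of 15 were higher and 0 lower, among them Cdkn1c, which encodes p57, at least 3.99-fold, and Ndrg1, 3.70-fold. The other 2 were the MHC class I genes H2-K1 and H2-D1, whose log2 ratios of 1.76 and 1.62 became 0.21 and -0.07 after quantile normalization. With TNF 2 of 15 were higher (Gadd45b and Cdkn2b) and 1 lower, the last being Cdkn1c, at least 3.99-fold lower. Over all genes 8.84% were higher and 8.76% lower, and both values of Cdkn2b lie under 428 units.

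Proliferation genes were lower on each later array of the time course. Of 19 measured, 16 were lower and 0 higher at day 7 than in progenitors (median -1.58), and 14 of 18 were lower and 0 higher at day 10 against day 7 (median -1.92), where the ribosome assembly list had 0. With TNF 3 of 18 were lower and 1 higher (median -0.15), beside 8.76% and 8.84% of all genes. Mki67 was 6.84-fold lower at day 10 than at day 7. The part of cell division in the nucleolar values was not tested.

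**Figure D3:**
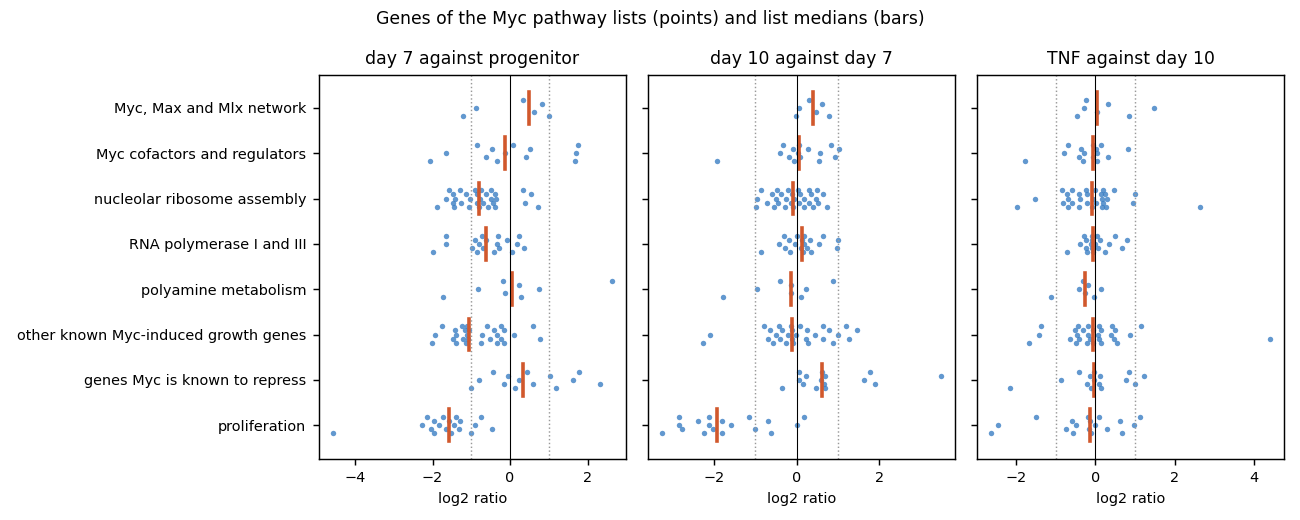
Log2 ratio at the floor of 105 units (x axis) of every measured gene of the 8 pathway lists, without the members themselves, in 3 comparisons of arrays. Points are genes, orange bars list medians and dotted lines 2-fold. Ribosome assembly, RNA polymerase I and III, other Myc-induced and proliferation genes lie mostly left of 0 at day 7. At day 10 against day 7 the proliferation list alone among the 8 has its median below -1.

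Genes with and without CACGTG near their start were lower at day 7 in the same share. Of 601 measured genes with the motif in a promoter window, 12.0% were at least 2-fold lower at day 7 than in progenitors, and of 4214 without it 12.0% were too. In the ribosome assembly list 3 of 6 genes with the motif and 9 of 21 without it were lower, and among the other Myc-induced genes 5 of 9 and 9 of 18. The share of windows that hold it was 14.6% of 41 in the ribosome assembly list and 31.1% of 45 in the list of other Myc-induced genes, beside 9.57% of the 8363 windows of genes measured on the arrays.

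Genes nearest in pattern were ranked by the distance between log2 profiles over the 4 arrays, each centred on its mean. Values under 428 units were first raised to 428, and the 4736 others ranked lay above it on at least 1 array. Differences below 428 units therefore do not count. The TNF values of Ccne1 (-1703 units), Gnl3 (287.3), Nup188 (163.0) and Myc (367.5) were all raised in this way. So were those of Rpap1, ranked near Mxd1, at day 10 (291.0) and with TNF (329.6), which narrows its differences from its other arrays. For Myc the nearest were Nup188, a nuclear pore gene, Ino80e, of a chromatin remodelling complex, Pdia3, a protein folding enzyme of the endoplasmic reticulum, Mrpl41, of the mitochondrial ribosome, and Hnrnpd, which encodes an RNA-binding protein, at distances of 0.12 to 0.15. Among the members Gnl3 was nearest to Myc, at 0.82, and Max farthest, at 1.89. For Mxd1 they were Cdk8, a Mediator kinase gene, Nudt21, of messenger RNA 3' processing, Rpap1, which encodes a partner of RNA polymerase II, Apaf1, of the apoptosome, and Cops2, of the COP9 signalosome, at 0.05 to 0.06. For Gnl3 they were Palm, Ruvbl1, Ctps (a CTP synthase gene), the cyclin gene Ccne1 and Prps1 (which makes the ribose phosphate of nucleotides), at 0.19 to 0.28. Ncl and Npm1 were the closest pair of members, at 0.30.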

How the data were processed

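Total RNA of 4 mouse samples, 1 per group, was measured on Affymetrix-type expression arrays. The authors deposited 1 linear intensity per probe set and array; for the software, background method and detection calls the sources used here name nothing. From 22.8% to 24.3% of values per array lie below 0, so a background had been subtracted, and a mean over the central 96% of values comes to 1000 on every array, so the authors had matched the arrays in brightness. Gene names come from the platform annotation (10298 with 1 symbol, 363 with several and 1993 with none, the last 2 kinds left out), and 10279 symbols were updated through the gene number. Deposited intensities were brought to the same 75th percentile on each array (factors 0.962 to 1.05), given a floor of 105 or 428 units (40th and 60th percentile of all scaled values) and converted to log2. A gene is represented by its probe set with the highest mean. The number of arrays limits the precision, and no test or p-value is given. Outside the members, the text names up to 4 genes of a list with the largest ratio in a comparison, the 5 genes nearest in pattern to Myc, Mxd1 and Gnl3, and list members called in counts of 3 or fewer; Sin3b, Eif5a, Mycn, Mxd3, Pes1 and the single marker genes were chosen after their values were seen. The members and lists were chosen with earlier results of these data known. Calculations used Python 3.11.15, pandas 2.3.3 and numpy 2.4.6, and were tested on simulated data.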

Additional observations from a re-analysis of the deposited data

How the results depend on the processing

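Each count and median of the members was recomputed under 6 alternatives: floors at the 60th and 25th percentile, values as deposited, quantile normalization, the mean over all probe sets of a gene, and a 3-fold rule. Of the 68 recomputed counts and medians, 62 stayed within 1.5 times the count or within the probe-set SD of the median. That SD, 0.74 to 1.08, is near or above the size of the medians, so the rule is wide for them. The count rule also let pass 6 members lower at day 10 against progenitor after quantile normalization, beside 4 in the main setting. At the 60th percentile the members lower became 0 both for day 10 against day 7 and for TNF against day 10. At the 25th percentile 1 member, Odc1, was higher with TNF. Quantile normalization gave 2 members lower with TNF (Gnl3, and Myc at a log2 ratio of -1.0). The 3-fold rule gave 2 lower for day 10 against progenitor and 0 with TNF. Of 152 recomputed single-gene ratios 2 changed sign, both of Npm1 for day 10 against day 7 (0.10, against -0.21 after quantile normalization and -0.03 as deposited). In that comparison the median of all genes was 0.07 with the common 75th percentile and -0.06 in the values as deposited. Of Odc1, a floor of 7.89 units gave log2 ratios of -5.43 for day 10 against day 7 and -4.68 against progenitor, by construction of the lower floor. No paired analysis was possible because each group has 1 array. Values under 428 units have no reliable order.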
